A study of Arabidopsis thaliana with 6 samples.

Results

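The genes described here are 10 loci of Arabidopsis salicylic acid signalling, picked by locus identifier from the 21981 genes of the deposited table, and all 10 were present. They are the salicylic acid receptor genes NPR1 (AT1G64280), NPR3 (AT5G45110) and NPR4 (AT4G19660), the NPR1-binding gene NIMIN1 (AT1G02450), the pipecolate pathway genes ALD1 (AT2G13810), SARD4 (AT5G52810) and FMO1 (AT1G19250), and the output genes PR1 (AT2G14610), PR2 (AT3G57260) and PR5 (AT1G75040). Messenger RNA was sequenced from leaves of 4-week-old Col-0 plants, in 3 samples titled transgenic line 1 to 3 and in 3 wild-type samples, and the series title concerns endoreplication and trichome branching. The sources used here do not give the transgene, its promoter or the number of plants behind a sample. Drought treatments are mentioned in the protocol in the same words for both groups, so watering cannot be told apart between them. Nothing says that the wild-type samples came from separate plants, and the spread behind each p-value may therefore be technical.

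Salicylic acid is the hormone that plants make against biotrophic pathogens. NPR1 is its transcriptional coactivator, which binds TGA factors at promoters such as that of PR1, whereas NPR3 and NPR4 bind salicylic acid too and act as corepressors of the same genes. Pipecolic acid, a lysine derivative, is the partner signal of systemic acquired resistance: ALD1 is the aminotransferase that starts its synthesis, SARD4 the reductase that completes it, and FMO1 converts it into the mobile signal N-hydroxypipecolic acid. PR1, PR2 (a beta-glucanase) and PR5 (a thaumatin-like protein) are secreted pathogenesis-related proteins and the classic readouts of the pathway.

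The levels of these genes moved in both directions. FMO1, NPR1 and NPR3 rose in the transgenic lines, PR1, NIMIN1, NPR4 and PR2 fell, and SARD4 and PR5 were not called. ALD1 had a mean below the 1 FPKM needed for testing and has no p-value with that filter. FMO1, at a mean under 1 FPKM in wild type, passed the filter only through the lines and so had to differ. FPKM is a level per kilobase of transcript, scaled for sequencing depth, and a gene was called at a limma adjusted p under 0.05 over the 17093 genes tested. Thus 7 of 9 tested genes were called, 3 higher and 4 lower, where 40.7% of all tested genes were called, 25.0% higher and 15.7% lower. In the same 7 genes the lines and wild type did not overlap, which held for 52.2% of all tested genes. The median log2 fold change was -0.24 over the 9 genes and 0.03 over all tested genes. In leaf tissue measured in bulk, fewer cells of a type and less RNA per cell cannot be told apart.

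**Figure D1:**
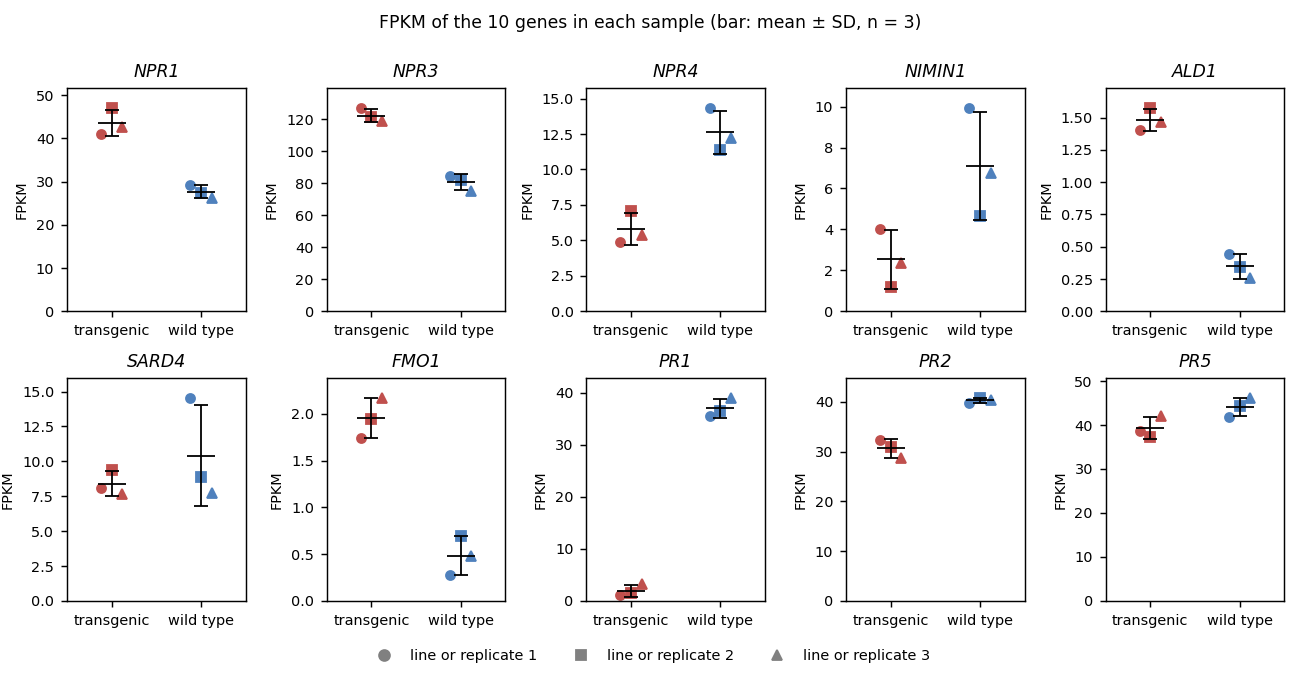
FPKM (vertical axes, from 0) of the 10 genes in the 3 transgenic lines and the 3 wild-type samples, with 1 point per sample and the mean ± SD of each group. PR1 was at 1.17 to 3.24 FPKM in the transgenic lines and at 35.5 to 39.0 FPKM in wild type, while ALD1 and FMO1 were higher in every line than in every wild-type sample and the values of SARD4 and PR5 overlapped.

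Summed FPKM were 1261802 to 1278449 in the transgenic lines and 970376 to 982620 in wild type, so the values are not scaled to a common total and what the authors divided by is unknown. The absolute depth cannot be read from FPKM. Relative divisors were read from the most common ratio of low values between a sample and wild-type replicate 1, set to 1.0. They were 0.70 to 0.98 in the lines and 1.0 to 1.59 in the other wild-type samples. At most 7.34% of the low genes lay near that ratio, so these divisors are rough. With the values as deposited, 61.5% of all calls were higher in the transgenic lines, against 48.7% after quantile normalization, 49.4% after cyclic loess, 56.6% with median-of-ratios factors and 18.6% after rescaling to TPM. That last step moved the median log2 fold change of all tested genes to -0.31. The leaf markers RBCS1A, RCA and LHCB1.1 summed to 27220 to 28100 FPKM in the lines and to 15760 to 16420 FPKM in wild type. All 3 were called higher, but RBCS1A lost its call after quantile normalization and cyclic loess, with a log2 fold change of -0.07 in the second. A list of 7 markers of other organs summed to 80.99 to 89.1 FPKM in the lines and to 141.9 to 146.7 FPKM in wild type. Most of that sum was the root-abundant glucosidase gene PYK10, at means of 70.9 FPKM in the lines and 111.6 FPKM in wild type. Of the 4 tested markers, PYK10 and the meristem gene STM were called lower. The flower genes AP3 and SEP3 were not called (log2 fold changes 0.07 and -0.26). None was called higher (0 at an unadjusted p under 0.05 with limma). The flower gene AG and the seed genes CRA1 and OLEO1, the last 2 at or near 0, were not tested. Among all tested genes 25.0% were higher and 15.7% lower. The part of these shifts in the results below was not tested.

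NPR1 had 40.9, 46.9 and 42.7 FPKM in transgenic lines 1, 2 and 3, against 29.2, 27.4 and 26.2 FPKM in wild-type replicates 1, 2 and 3. Every line lay above every wild-type sample. The means were 43.5 ± 3.09 and 27.6 ± 1.49 FPKM (SD, n = 3 each), or 0.64 as a log2 fold change on the log2(FPKM + 1) scale used throughout (SE 0.077, limma adjusted p = 0.000161). NPR1 lies on the minus strand of chromosome 1 at 23852748 to 23855658 (TAIR10.1). The pseudogene AT1G64270 and the long noncoding RNA gene AT1G08667, both on the opposite strand and neither listed in the table, overlap it. The sources used here do not say whether strand was used in the counting, so reads of these neighbours could be part of its value.

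NPR3 had the highest level of the 10 genes in both groups. It stood at 126.7, 121.0 and 118.7 FPKM in lines 1, 2 and 3, against 84.6, 82.1 and 75.2 FPKM in wild type, again without overlap. The log2 fold change was 0.59 (SE 0.060, limma adjusted p = 5.06e-05). Within a sample, the log2 ratio of NPR3 to NPR1 does not depend on what the authors divided by, apart from the pseudocount. It was 1.61, 1.35 and 1.45 in the lines, against 1.504, 1.55 and 1.48 in wild type. The mean difference was -0.04 (two-sided exact permutation p = 0.7, where 3 against 3 cannot go below 0.10), and the values of the 2 groups overlapped.

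NPR4, the closest relative of NPR3, went the other way. It had 4.89, 7.08 and 5.40 FPKM in lines 1, 2 and 3, against 14.3, 11.3 and 12.2 FPKM in wild type. Each line was below each wild-type sample, and the mean fell to 5.79 ± 1.15 FPKM in the lines, against 12.6 ± 1.53 FPKM in wild type. The log2 fold change was -1.01 (SE 0.146, limma adjusted p = 0.000484), and 3.36% of all tested genes had a fold change as low or lower. Of the 3 receptor genes, NPR4 therefore had the lowest level in both groups and was the one called lower.

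NIMIN1 encodes a small protein that binds NPR1 and restrains PR1 induction. Its values were scattered, with 4.03, 1.19 and 2.38 FPKM in lines 1, 2 and 3, against 9.91, 4.65 and 6.75 FPKM in wild type. Line 1 and wild-type replicate 2 came within 1 FPKM of each other without overlapping. NIMIN1 had a log2 fold change of -1.23 with a standard error of 0.321 and was called lower (limma adjusted p = 0.0137). Without wild-type replicate 1 its adjusted p was 0.0546 (log2 fold change -0.99), and it was 0.0741 with no filter on low values, within a range of 0.000482 to 0.0741 over its 15 alternatives.

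In the pipecolate pathway, ALD1 and FMO1 were both scarce in wild type and about 4-fold higher in the transgenic lines. ALD1 was at 1.40, 1.57 and 1.47 FPKM in lines 1, 2 and 3, against 0.445, 0.345 and 0.255 FPKM in wild type. The ratio of the means was 4.25, the 3 lines lay close together and no wild-type sample came near them. The log2 fold change of ALD1 was 0.88 on the log2(FPKM + 1) scale, which understates low genes. When all genes were tested with no filter on low values, ALD1 passed (SE 0.066, limma adjusted p = 0.000599). FMO1 was at 1.74, 1.95 and 2.17 FPKM in lines 1, 2 and 3, against 0.275, 0.694 and 0.479 FPKM in wild type. The ratio of the means was 4.05 and the log2 fold change 1.00 (SE 0.205, limma adjusted p = 0.0038), with a value of 1.88 at a pseudocount of 0.1 and of 0.34 at a pseudocount of 5. Because its level in the lines alone carried FMO1 over the filter, this p-value is no independent support. The log2 ratio of FMO1 to ALD1 averaged 0.25 ± 0.098 in the lines and 0.13 ± 0.27 in wild type (SD, n = 3 each). The difference was 0.12 (two-sided exact permutation p = 0.8). It was 0.04 at a pseudocount of 0.1 and 0.066 at a pseudocount of 5, so its size rests partly on the pseudocount.

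SARD4 did not share this pattern. Its values were 8.09, 9.40 and 7.67 FPKM in lines 1, 2 and 3, against 14.5, 8.90 and 7.76 FPKM in wild type, and the groups overlapped. The log2 fold change was -0.24 with a 95% interval from -0.69 to 0.21 (limma adjusted p = 0.375). Wild-type replicate 1 stood apart, and without it the value was 0.007 (adjusted p = 0.975). After rescaling to TPM SARD4 was called lower (log2 fold change -0.58, adjusted p = 0.0321, within a range of 0.0321 to 0.975 over its alternatives), against the shift of -0.31 in all genes. On TAIR10.1 SARD4 lies on the plus strand of chromosome 5 at 21399331 to 21400686 and overlaps the protein-coding gene AT5G52800 of the same strand, which the table does not list, so its value may hold reads of that gene.

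The 300 bases upstream of the start of 9 of the 10 genes, all but PR1, read from RefSeq TAIR10.1, were searched on both strands for 3 short motifs: TGACG, the core of the as-1 element that TGA factors bind, TTGAC, the core of the W box that WRKY factors bind, and GAAATT, the element bound by CBP60g and SARD1, the regulators of salicylic acid and pipecolate genes. TGACG occurred upstream of 3 of the 9 genes and of 22.0% of 21539 genes of the table, TTGAC upstream of 4 of 9 and of 50.6%, and GAAATT upstream of 4 of 9 and of 37.8%. GAAATT lay upstream of FMO1 (called higher), ALD1 (not tested), NIMIN1 (called lower) and SARD4 (not called). SARD4 is counted for TTGAC too, and its window overlaps the protein-coding gene AT5G52800. The sequences of FMO1 and ALD1 are shown because these are the 2 genes that were about 4-fold higher, with each match to GAAATT in capitals on either strand and bases 5′ to 3′ towards the gene.

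FMO1 promoter, chr1:6653196-6653495, minus strand: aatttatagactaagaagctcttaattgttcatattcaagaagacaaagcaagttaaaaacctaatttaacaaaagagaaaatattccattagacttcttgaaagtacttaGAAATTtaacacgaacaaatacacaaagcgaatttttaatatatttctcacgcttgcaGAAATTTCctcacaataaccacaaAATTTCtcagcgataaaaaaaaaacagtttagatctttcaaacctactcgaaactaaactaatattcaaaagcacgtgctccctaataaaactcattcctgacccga

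ALD1 promoter, chr2:5768117-5768416, plus strand: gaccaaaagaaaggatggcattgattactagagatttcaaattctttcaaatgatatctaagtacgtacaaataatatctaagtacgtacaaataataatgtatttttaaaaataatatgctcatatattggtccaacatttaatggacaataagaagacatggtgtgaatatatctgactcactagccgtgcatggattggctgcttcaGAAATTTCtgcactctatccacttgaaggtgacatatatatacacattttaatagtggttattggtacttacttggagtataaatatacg

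FMO1 had 4 matches to GAAATT and ALD1 had 2, while TGACG and TTGAC had none in either window. In both, 2 matches on opposite strands overlap to form the palindrome GAAATTTC, which starts 131 bases before FMO1 and 90 bases before ALD1. This palindrome, picked after the matches were seen, lay upstream of 1.65% of the genes searched and of 2 of the 9 genes. Of 272 tested genes that hold it, 31.2% were higher and 15.4% lower, with a median log2 fold change of 0.05, against 25.0%, 15.7% and 0.03 for all tested genes. A match is a description of letters and not a binding site.

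**Figure D2:**
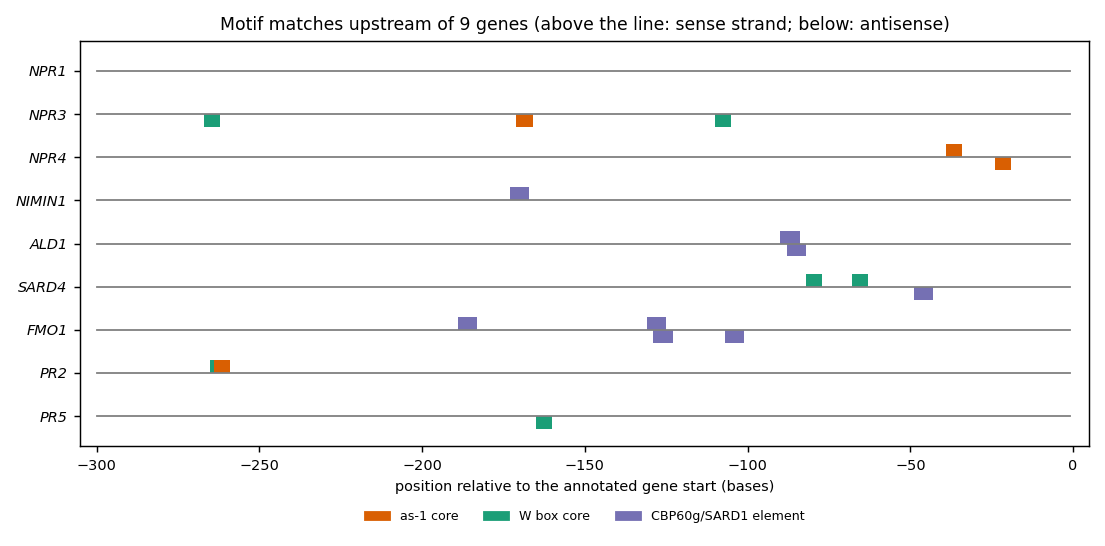
Positions of the 3 motifs in the 300 bases upstream of 9 of the genes (horizontal axis, bases relative to the annotated start), with sense matches above each line and antisense matches below. FMO1 holds 4 matches of the CBP60g/SARD1 element, ALD1 holds 2, and NIMIN1 and SARD4 hold 1 each. NPR4 holds 2 of the as-1 core, and NPR1 holds none. The SARD4 window overlaps the protein-coding gene AT5G52800.

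PR1 changed most. It had 1.17, 1.46 and 3.24 FPKM in lines 1, 2 and 3, against 35.5, 36.5 and 39.0 FPKM in wild type. Line 3 was the highest of the lines and still far below each wild-type sample. Mean PR1 in wild type was 18.9 times that in the lines, and the log2 fold change was -3.75 (SE 0.221, limma adjusted p = 1.52e-06). On the log2(FPKM + 1) scale, which understates low genes, only 1 of the 17093 tested genes, NIT2, had a lower log2 fold change. By the ratio of means the scarcer gene DLO1, described below, fell further, with wild type at 44.1 times the lines.

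PR2 fell far less than PR1. It had 32.3, 31.0 and 28.7 FPKM in lines 1, 2 and 3, against 39.8, 40.8 and 40.3 FPKM in wild type. The wild-type samples lay within about 1 FPKM of each other and above all lines, and the log2 fold change was -0.39 (SE 0.069, limma adjusted p = 0.00175). PR5 had 38.7, 37.2 and 42.1 FPKM in the lines, against 41.9, 44.3 and 46.1 FPKM in wild type, where line 3 overlapped wild-type replicate 1. Its log2 fold change was -0.16 with a 95% interval from -0.32 to 0.001 (limma adjusted p = 0.105). PR5 was called lower after quantile normalization (-0.33, adjusted p = 0.00694), cyclic loess (-0.34, adjusted p = 0.00575) and rescaling to TPM (-0.53, adjusted p = 0.000257), within a range of 0.000257 to 0.268 over its alternatives.

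The log2 ratio of PR1 to PR2 within a sample was -3.94, -3.71 and -2.81 in lines 1, 2 and 3, against -0.16, -0.16 and -0.05 in wild type. The difference of -3.36 carried a two-sided exact permutation p of 0.1, the smallest that 3 against 3 can give. In wild type the 2 genes thus stood at nearly equal levels per length, and in the lines PR1 was far below PR2. The 3 output genes did not move as a unit, since their fold changes ran from -3.75 to -0.16.

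The upstream sequence of NPR4 is shown because it was the receptor gene that fell and the 1 gene of the 9 with a pair of as-1 cores, which are in capitals.

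NPR4 promoter, chr4:10698812-10699111, minus strand: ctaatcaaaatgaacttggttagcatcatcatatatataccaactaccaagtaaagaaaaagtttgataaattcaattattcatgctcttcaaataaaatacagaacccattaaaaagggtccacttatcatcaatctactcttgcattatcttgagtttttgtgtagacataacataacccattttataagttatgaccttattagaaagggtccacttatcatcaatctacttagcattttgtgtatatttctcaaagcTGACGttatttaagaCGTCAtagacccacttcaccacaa

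NPR4 had 2 matches to TGACG on opposite strands, starting 39 and 24 bases before the gene. Upstream of PR2, 1 TTGAC and 1 TGACG overlapped, and the NPR1 window held none of the 3 motifs.

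The order of the levels per length changed mainly through PR1 and NPR1. In the lines the order was NPR3, NPR1, PR5, PR2, SARD4, NPR4, NIMIN1, PR1, FMO1 and ALD1. NPR1 and PR5, NIMIN1 and PR1, and PR1 and FMO1 were neighbours whose values overlapped there. In wild type the order was NPR3, PR5, PR2, PR1, NPR1, NPR4, SARD4, NIMIN1, FMO1 and ALD1, with overlap between NPR4 and SARD4, SARD4 and NIMIN1, and FMO1 and ALD1. PR1 stood 8th in the lines, level with FMO1 at a mean of 1.95 FPKM, and 4th in wild type. NPR1 stood 2nd in the lines and 5th in wild type.

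**Figure D3:**
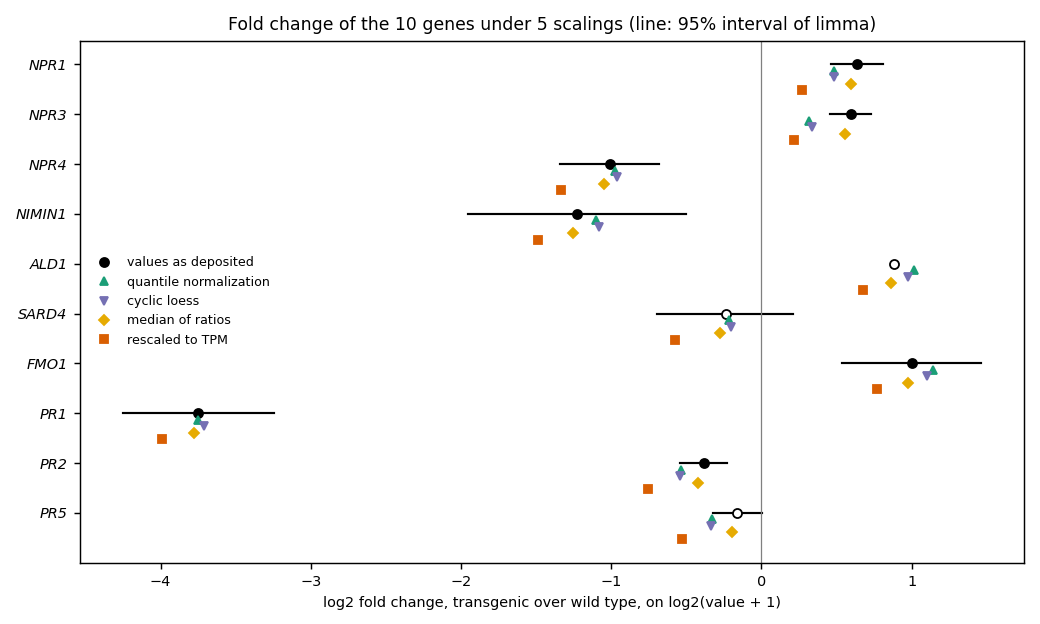
Log2 fold change of the 10 genes, transgenic over wild type (horizontal axis), with the values as deposited (black, the line is limma's 95% interval, open where not called or, for ALD1, not tested) and under 4 other scalings. Each gene kept its side of 0 under the 5 scalings, and rescaling to TPM placed every value below the one as deposited, in PR1 at -3.99 and in NPR3 at 0.22.

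The size of the smaller changes depended on scaling. Quantile normalization gave log2 fold changes of 0.49 for NPR1, 0.31 for NPR3 and -0.54 for PR2. Rescaling to TPM gave 0.27 for NPR1, 0.22 for NPR3 and -0.75 for PR2. All of these were called with limma, and the TPM values stand against the shift of -0.31 in all genes.

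The genes with the profile most like that of a member were sought by the Euclidean distance between centred log2(FPKM + 1) values over the 6 samples. For PR1 they were AT4G38860 (SAUR16, a small auxin-upregulated RNA gene; distance 0.45), the nitrilase gene NIT2 (0.84) and AT4G34790 (SAUR3, 1.06). AT4G38860 had 0.122, 0.29 and 1.34 FPKM in lines 1, 2 and 3, against 14.4, 14.7 and 15.1 FPKM in wild type. Line 3 was highest among the lines, as for PR1, a likeness that the choice by distance favours. AT4G38860 and AT4G34790 passed the filter only through wild type and so had to differ. For FMO1 they were the phospholipase gene PLC4 (0.13), AT1G74010 (0.18) and AT2G41835 (0.18), and for NPR3 they were THX, a thioredoxin gene (0.05), HPR, the hydroxypyruvate reductase of photorespiration (0.05), and LACS9 (0.06).

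Around the receptors, 18 loci of NPR relatives and partners were listed, of which 17 were in the table and 15 were tested. In the lines 4 were higher, 5 lower and 6 not called, where 25.0% of all tested genes were higher and 15.7% lower. Their median log2 fold change was -0.17. The glutaredoxin gene GRX480, whose protein binds TGA factors, rose to 206.1 ± 14.6 FPKM in the lines, against 62.5 ± 8.02 FPKM in wild type (log2 fold change 1.71, SE 0.091, limma adjusted p = 7.81e-07). The other higher genes, named after their values were seen, were the thioredoxin genes TRX3 (0.64) and TRX5 (0.57) and the NPR1-binding gene NIMIN-2 (0.59), whose call ended after rescaling to TPM and with no filter (range of adjusted p 0.00792 to 0.208). NIMIN-2 and NIMIN1 were thus called in opposite directions.

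The 5 lower partners, also named after their values were seen, were BOP2 (log2 fold change -0.84), TGA1 (-0.77), TGA7 (-0.62), TGA4 (-0.53) and the ubiquitin ligase scaffold gene CUL3A (-0.28). TGA1 had 8.59 ± 0.865 FPKM in the lines and 15.3 ± 0.164 FPKM in wild type. Its sister gene TGA4 had 9.53 ± 0.549 and 14.2 ± 1.498 FPKM in lines and wild type, and the opposite-strand genes AT5G10040 and AT5G10050 overlap it on TAIR10.1, so its value may hold their reads. TGA2, TGA5 and TGA6, the clade that acts with NPR1 at PR1, were not called with the values as deposited (-0.30, -0.13 and -0.31). After rescaling to TPM, TGA2, TGA5 and TGA6 were called lower. The count of lower partners was then 10, where 8363 of all 17093 tested genes were lower. That count includes TGA3, which was at 0.14 as deposited and at -0.23 after rescaling to TPM. TGA2 was also called lower without line 1, without a mean-variance trend and with median-of-ratios factors, and TGA6 without such a trend. CUL3A lost its call without line 1 or wild-type replicate 1, and TGA7 without line 2 or wild-type replicate 2 or 3, as well as after quantile normalization, cyclic loess and with no filter. The adjusted p of CUL3A ran from 0.000171 to 0.0647 over its alternatives and that of TGA7 from 0.00326 to 0.105.

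Upstream of salicylic acid and pipecolate, 12 loci were tested, 7 of them higher, 3 lower and 2 not called, beside 25.0% higher and 15.7% lower among all tested genes. Their median log2 fold change was 0.63. The count of higher genes ran from 6 to 8 over the alternatives. EDS5 lost its call after rescaling to TPM (log2 fold change 0.17, limma adjusted p = 0.146). ICS1, the isochorismate synthase that makes the precursor of salicylic acid, rose to 25.8 ± 2.16 FPKM in the lines, against 11.1 ± 0.367 FPKM in wild type (log2 fold change 1.15, SE 0.090, limma adjusted p = 9.39e-06). PBS3, which conjugates isochorismate, had 11.4, 15.1 and 11.7 FPKM in the lines, against 5.29, 4.84 and 4.52 FPKM in wild type (1.22). CBP60G, a master regulator of ICS1, ALD1 and FMO1, had a log2 fold change of 1.44 and the immune regulator EDS1 one of 1.16. SARD1, the partner of CBP60G, was at 26.2, 31.6 and 35.3 FPKM in the lines, against 22.5, 27.1 and 25.1 FPKM in wild type, and was not called (0.30, 95% interval 0.04 to 0.56, limma adjusted p = 0.0648). Leaving out line 1, its lowest sample among the lines, gave an adjusted p of 0.0147, within a range of 0.0147 to 0.648 over its alternatives, and its direction turned after rescaling to TPM.

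Among the same 12 loci, DLO1 (AT4G10500), a salicylic acid hydroxylase, had 0.0619, 0.049 and 0.0685 FPKM in lines 1, 2 and 3, against 3.05, 2.75 and 2.11 FPKM in wild type (log2 fold change -1.77, SE 0.204, limma adjusted p = 0.000119). Mean DLO1 in wild type was 44.1 times that in the lines. DLO1 passed the filter only through wild type and so had to differ, and its log2 fold change ran from -4.085 at a pseudocount of 0.1 to -0.59 at a pseudocount of 5. DMR6, the second such hydroxylase, had 35.0 ± 0.854 FPKM in the lines and 51.2 ± 1.87 FPKM in wild type. AT4G33150 (LKR/SDH), which degrades lysine, the precursor of pipecolic acid, had 14.6 ± 0.855 FPKM in the lines and 24.8 ± 0.291 FPKM in wild type. UGT76B1, which glucosylates N-hydroxypipecolic acid, had 1.14, 1.06 and 0.305 FPKM in the lines, against 1.51, 1.78 and 1.60 FPKM in wild type, and was not called (-0.55, limma adjusted p = 0.0977). EDS5, DMR6, AT4G33150 and UGT76B1 were named after their values were seen.

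**Figure D4:**
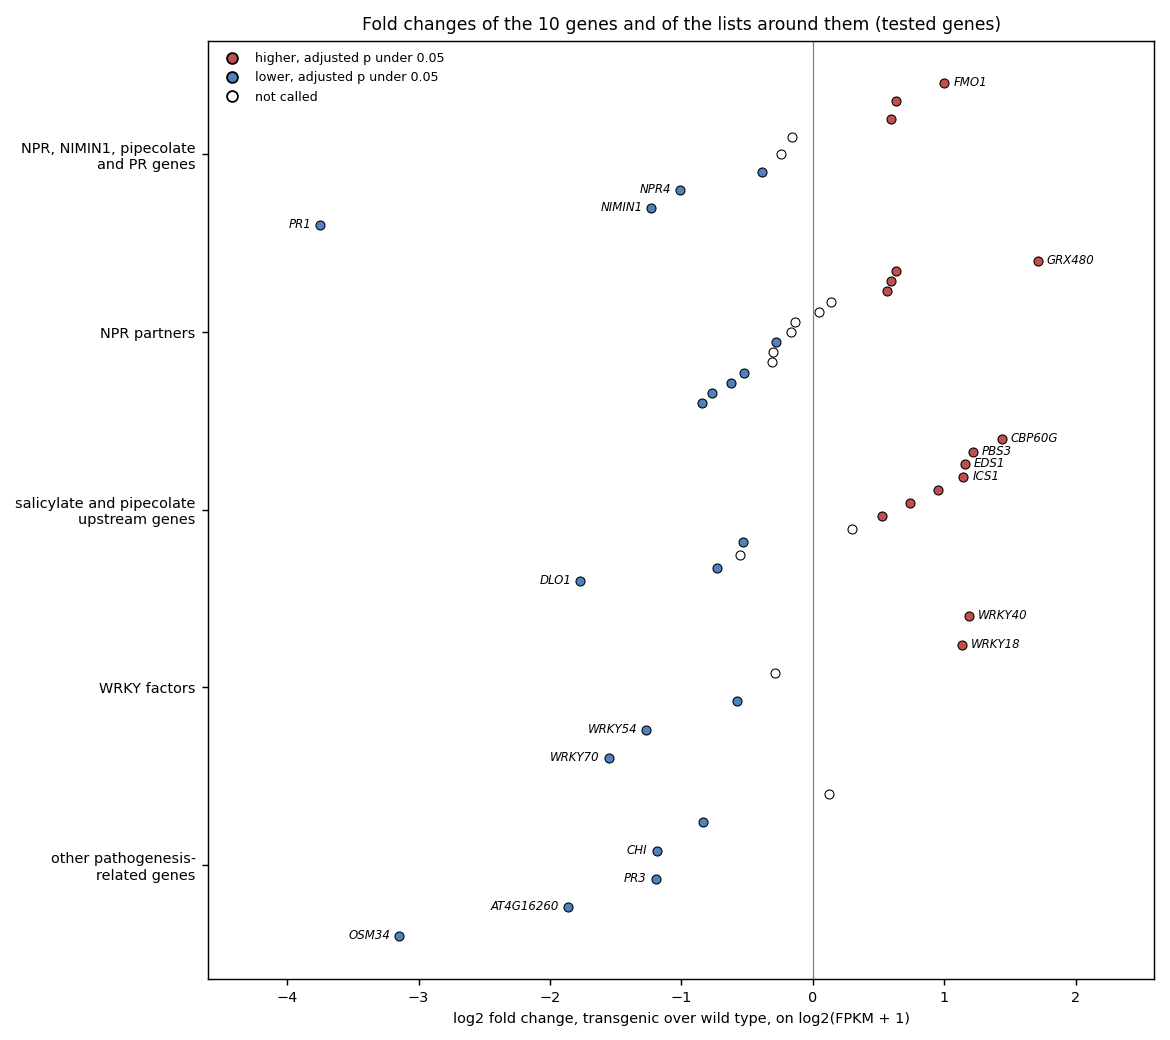
Log2 fold change (horizontal axis, transgenic over wild type) of the tested genes among the 10 described and in 4 lists around them, with 1 point per gene, red for higher, blue for lower and white for not called. Of the upstream genes 7 of 12 were higher, and of the other pathogenesis-related genes 5 of 6 were lower.

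Among 7 WRKY factors of salicylic acid defence, 6 were tested, 2 higher, 3 lower and 1 not called, against shares of 25.0% higher and 15.7% lower over all tested genes. WRKY18 and WRKY40 had log2 fold changes of 1.13 and 1.19, with means of 745.2 and 818.5 FPKM in the lines and of 339.1 and 358.7 FPKM in wild type. WRKY70, which acts downstream of NPR1, and its relative WRKY54 had log2 fold changes of -1.55 and -1.27. WRKY54 stood at 7.68, 5.85 and 4.97 FPKM in the lines, against 15.6, 16.8 and 15.7 FPKM in wild type. WRKY38, named after its value was seen, was the third lower gene (-0.58, limma adjusted p = 0.0458, range over its alternatives 0.00529 to 0.149) and lost its call without line 1, line 2 or any wild-type replicate, after quantile normalization and cyclic loess, and with no filter.

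Of 9 other pathogenesis-related genes, 8 were in the table and 6 were tested, of which 5 were lower, 1 was not called and 0 were higher (0 at an unadjusted p under 0.05 with limma). Of all tested genes 15.7% were lower and 25.0% higher. The median log2 fold change of the 6 was -1.19. OSM34, an osmotin of the same family as PR5, was lower with a log2 fold change of -3.15 and a standard error of 0.161 (limma adjusted p = 6.09e-07), at 1.60, 2.01 and 1.24 FPKM in the lines, against 18.4, 25.9 and 22.5 FPKM in wild type. AT4G16260 had 2.29 ± 0.904 FPKM in the lines and 10.8 ± 2.57 FPKM in wild type. The chitinase genes CHI and PR3 had log2 fold changes of -1.19 and -1.195. BG3, a glucanase gene close to PR2 on chromosome 3, had 4.54 ± 0.395 FPKM in the lines and 8.93 ± 1.196 FPKM in wild type and was named after its value was seen. The defensin gene PDF1.2, an output of jasmonate and ethylene, was not called (0.12, 95% interval -0.32 to 0.57).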

How the data were processed

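RNA sequencing was done by the authors on polyadenylated RNA of leaves, 3 transgenic lines and 3 wild-type samples. The authors deposited 1 table of FPKM with 1 column per sample. TopHat2, DESeq and the TAIR10 build are named, with no version or role, per the submitters' processing notes. The sources used here do not give the FPKM program, the annotation or the use of strand. Of 21981 loci, 21548 were matched to RefSeq TAIR10.1, used for names, coordinates and upstream sequence. The upstream sequence of PR1 is not reported here.

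Genes averaging 1 FPKM or more over the 6 samples (17093) were fitted as log2(FPKM + 1) with limma 3.58.1 in R 4.3.3, with a mean-variance trend, no covariate and Benjamini-Hochberg adjustment over all tested genes, after tests on simulated data. SE is limma's moderated error. FPKM give no read counts, so no count model, counting interval or detection floor could be had. Ratios within samples were compared by exact permutation tests.

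The 10 genes and the lists around them were chosen with earlier results of these data known. Named in each list are called genes with an absolute log2 fold change of at least 1, and for PR1, FMO1 and NPR3 the 3 nearest profiles. Alternatives varied pseudocount (0.1, 5), filter (none, 5 FPKM), scaling, trend, title number as a block and left-out samples. Reads shared with close paralogs could be split in ways not given here.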

Additional observations from a re-analysis of the deposited data

How the results depend on the processing

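Of 142 refitted values of the 9 tested genes, 135 kept their direction and side of the threshold, 4 gained a call, 2 lost one and 1 reversed. The other filters, the block and the fit without a trend leave the fold change itself unaltered, so only the call could change there. ALD1, untested in all but 1 setting, and the ratios, whose p cannot pass 0.05, say nothing of stability. NPR1, NPR3, NPR4, FMO1, PR1 and PR2 kept their calls in every alternative that tested them, and NIMIN1 and FMO1 were not tested at a mean of at least 5 FPKM. NIMIN1 lost its call with no filter on low values (log2 fold change -1.23). ALD1 was called with no filter (0.88). Rescaling to TPM gave calls for SARD4 (-0.58) and PR5 (-0.53). It gave 10 lower NPR partners, where 8363 of all 17093 tested genes were lower. PR5 was also called after quantile normalization (-0.33) and cyclic loess (-0.34). At a mean of at least 5 FPKM, 3 NPR partners were lower, where 2035 of all 13015 genes tested there were lower. BOP2 and TGA7, at means of 4.94 and 3.17 FPKM over the 6 samples, were not tested with that filter. Leaving out each sample in turn gave log2 fold changes of -1.52 to -0.92 for NIMIN1 and -0.41 to 0.007 for SARD4, log2 ratio differences of -0.11 to 0.018 for NPR3 to NPR1 and -0.035 to 0.22 for FMO1 to ALD1. The cause of these changes was not tested. The numbers in the titles were not shown to pair the samples, since the deviations of same-numbered samples from their group means had correlations of -0.035, 0.049 and -0.023. With the replicate block 3 of the 9 tested genes were higher and 4 lower, as without it. Of all 17093 tested genes 4155 were then higher and 2551 lower. In the lists TGA7 lost its call and SARD1 gained one with the block. With 3 samples a group and unknown depth, precision rests on the spread between samples.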
